A study of Mus musculus with 10 samples.

Results

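The genes described here code for the nuclear pore complex and for the soluble receptors that carry proteins and RNA through it. They were taken by symbol: names that begin with Nup, Kpna, Ipo or Tnpo and a number, names that begin with Xpo, and Kpnb1, Ran, Rangap1, Nutf2 and Tpr. The rule used no measured value. It took 47 of the 12803 rows of the expression table, which hold 46 symbols because Nutf2 stands in 2 rows. In the order of the transport route they comprise 6 genes of the outer ring, 5 of the inner ring, 4 of the channel group, 2 of the cytoplasmic side, 3 of the nuclear basket, 1 membrane nucleoporin, 5 importin alpha genes, 11 import receptors, 6 export receptors and 4 rows of the Ran cycle.

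RNA was sequenced from muscle stem cells, the resident progenitors of skeletal muscle, of young male C57BL/6 mice. The cells came from limb muscles and were sorted by flow cytometry as CD45-, CD31-, Sca1- and VCAM+, and each library came from a single animal. The TubA group (n = 4) had been cultured for 24 h in 40 µM Tubastatin A, a compound that inhibits the cytoplasmic deacetylase HDAC6, dissolved in DMSO. The vehicle group (n = 3) had been cultured for 24 h with the same volume of DMSO alone. Both were kept in Ham's F-10 with 10% horse serum on plates coated with extracellular matrix. The fresh group (n = 3) was taken at 0 h ex vivo, per the labels, which also name its treatment as vehicle. The labels name no altered allele in any group. Vehicle and fresh cells therefore differ in time and in all that culture brings, which cannot be told apart here. Whether the fresh cells met the solvent is not clear from the labels, and TubA and vehicle cells differ in the compound.

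The nuclear pore complex is a ring-shaped channel through the nuclear envelope, built from stacked rings of nucleoporins. Its outer rings are made of the Y complex, its inner ring holds the channel proteins, and unstructured repeats of phenylalanine and glycine fill the channel. Importins and exportins cross it by binding these repeats, and the GTPase Ran sets their direction, since Ran-GTP in the nucleus releases import cargo and holds export cargo. Muscle stem cells are small, quiescent cells that grow and enter the cell cycle when activated, and a growing nucleus adds pores.

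Levels are RPKM, reads per kilobase of exon relative to a scaled library size, as the authors computed them. A difference is a difference of log2(RPKM + 1), given with its standard error (SE), so that folds of low genes are understated. Tests are limma moderated tests over all 12803 rows with Benjamini-Hochberg adjustment, and a gene is said to have risen, fallen or changed only where the adjusted p was under 0.05. Levels after ± are SD over 4 TubA, 3 vehicle and 3 fresh libraries. The reads in the table could be recovered as whole numbers, within 0.05 reads in every library, for 95.3% of rows and numbered 37.6 to 55.4 M a library, so that 1 read in a gene of 1 kb stood for 0.0160 to 0.0339 RPKM. Fresh libraries held 1.40 to 1.42 reads per unit of scaled size, and cultured libraries 0.831 to 0.930. In an alternative scaling every library was given the same sum of RPKM. The log2 scale then shifted by 0.12 between TubA and vehicle, by 0.72 between TubA and fresh and by 0.60 between vehicle and fresh. Genes of low level moved by less, because 1 RPKM is added before the logarithm. Marker transcripts moved with the groups too. The 9 stem cell markers summed to 286 to 304 RPKM in TubA, 479.6 to 503 RPKM in vehicle and 2583 to 2789 RPKM in fresh cells. The 7 markers of fibro-adipogenic progenitors summed to 86.0 to 117 RPKM in TubA, 63.8 to 80.8 RPKM in vehicle and 1640 to 2104 RPKM in fresh cells. Most of the fresh sum was Gsn and Col3a1, at 1362 and 407 RPKM on average. The others averaged from 0.117 RPKM for Pdgfra to 28.1 RPKM for Col1a1 in fresh cells. Among the markers of endothelial cells the sums were 5.93 to 6.73 RPKM in TubA, 3.25 to 4.19 RPKM in vehicle and 37.8 to 48.3 RPKM in fresh cells. In TubA against vehicle cells 1 of the 9 endothelial markers rose (Tek), 1 fell (Egfl7) and 7 did not pass. Of the 7 immune markers 3 were in the table, with sums of 2.598 to 4.13 RPKM in TubA, 0.722 to 0.954 RPKM in vehicle and 6.01 to 9.81 RPKM in fresh cells. Cd68, a macrophage marker, rose by 1.16 in TubA against vehicle cells (adjusted p = 0.000211), while Lyz2 (0.13) and Cd79a (0.16) did not pass. Schwann cell markers summed to 0.0848 to 0.101 RPKM in TubA, 0.169 to 0.361 RPKM in vehicle and 4.64 to 7.96 RPKM in fresh cells, and erythroid markers to 0.0262 to 0.130 RPKM in TubA, 0.0884 to 0.230 RPKM in vehicle and 7.24 to 29.5 RPKM in fresh cells. The 6 markers of pericytes and smooth muscle summed to 12.0 to 63.2 RPKM in TubA, 177 to 241 RPKM in vehicle and 237 to 289.6 RPKM in fresh cells. Nearly all of that sum was Acta2, smooth muscle actin, at 23.0 RPKM in TubA and 212 RPKM in vehicle cells on average. Of the other 5 of these markers, Pdgfrb rose by 0.66 in TubA against vehicle cells and 4 did not pass. Myofibre markers reached 331 RPKM in TubA replicate 2, against 15.5 to 23.8 RPKM in the vehicle libraries and 47.3 to 57.0 RPKM in the fresh libraries. The part of these other transcripts in the results below was not tested. A lower level in bulk RNA cannot tell fewer expressing cells from less RNA per cell.

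The promoters of 5 members are shown because these genes took different courses: Nup37 and Nup107 were high in vehicle cells alone, Kpna2 was lower in TubA than in vehicle cells, Nup98 was lower in both cultured groups, and Tnpo2 was higher in both. Each is the 250 bases before the annotated start in RefSeq (GRCm38.p6, which is mm10), 5′ to 3′ on the gene's strand. They lie at chr10:88146742-88146991 (plus strand) for Nup37, chr10:117792706-117792955 (minus) for Nup107, chr11:106999526-106999775 (minus) for Kpna2, chr7:102210167-102210416 (minus) for Nup98 and chr8:85036643-85036892 (plus) for Tnpo2. Capitals mark matches, on either strand, to the CCAAT box (CCAAT), the cell cycle homology region (TTTGAA), the E-box (CACGTG) and the NRF1 motif (GCGCA followed directly by its reverse complement). The E2F letters TTTCCCGC and TTTGGCGC were also searched and are in none of these 5. No motif searched holds the letters of another.
Nup37: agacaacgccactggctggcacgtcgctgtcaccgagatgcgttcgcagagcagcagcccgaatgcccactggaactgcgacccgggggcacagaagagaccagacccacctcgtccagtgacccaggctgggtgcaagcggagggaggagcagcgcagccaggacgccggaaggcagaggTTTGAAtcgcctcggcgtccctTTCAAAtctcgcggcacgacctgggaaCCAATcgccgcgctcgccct
Nup107: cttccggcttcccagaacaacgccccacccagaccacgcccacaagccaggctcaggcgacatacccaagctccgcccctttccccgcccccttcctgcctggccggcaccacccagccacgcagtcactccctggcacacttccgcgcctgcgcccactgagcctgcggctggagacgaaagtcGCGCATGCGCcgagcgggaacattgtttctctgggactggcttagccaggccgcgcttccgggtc
Kpna2: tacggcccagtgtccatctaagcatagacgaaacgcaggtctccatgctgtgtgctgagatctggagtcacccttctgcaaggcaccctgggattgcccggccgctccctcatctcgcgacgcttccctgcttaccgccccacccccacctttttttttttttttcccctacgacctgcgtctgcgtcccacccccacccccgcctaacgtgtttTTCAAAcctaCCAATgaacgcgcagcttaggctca
Nup98: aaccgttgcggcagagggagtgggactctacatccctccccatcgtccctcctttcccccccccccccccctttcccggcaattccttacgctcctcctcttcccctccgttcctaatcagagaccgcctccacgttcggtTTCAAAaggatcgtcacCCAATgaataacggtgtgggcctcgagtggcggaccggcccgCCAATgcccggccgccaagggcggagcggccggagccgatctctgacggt
Tnpo2: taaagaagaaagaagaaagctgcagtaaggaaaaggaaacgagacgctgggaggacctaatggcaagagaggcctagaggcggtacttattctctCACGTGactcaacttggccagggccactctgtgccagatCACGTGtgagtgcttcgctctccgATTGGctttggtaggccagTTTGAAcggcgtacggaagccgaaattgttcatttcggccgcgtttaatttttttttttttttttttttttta
Of the 46 symbols, 38 had a promoter in RefSeq, as did 9980 of all genes in the table. A gene with more than 1 start was counted where any of its promoters held the letters. The CCAAT box was in 50.0% of the 38 genes and in 40.6% of the 9980. The shares for TTTGAA were 18.4% of the 38 and 12.3% of all, and those for CACGTG 18.4% and 10.1%. The E2F letters were in 2.63% of the 38, Nup210 alone, and in 2.97% of all. The NRF1 letters were in 13.2% of the 38, namely Nup107, Nup50, Nup62, Ran and Xpo5, and in 1.83% of all. These 5 genes belong to 5 roles. Each was lower in TubA than in vehicle cells in the results below, as were 26 of all 47 rows. How all genes with the NRF1 letters moved in that comparison was not tested. The 7 genes with TTTGAA moved in different ways in that comparison: Ipo4, Ipo7, Kpna2 and Nup37 fell, Tnpo2 rose, and Nup98 and Tpr did not pass the test. A match describes letters and not a site in use.

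Tubastatin A set most of these genes below the level reached in culture with vehicle. Between TubA and vehicle cells 26 of the 47 rows fell, 4 rose and 17 did not pass, with a median difference of -0.37. Over all genes 29.7% fell and 29.6% rose, with a median of 0.02. The 4 that rose were Ipo13, Tnpo2, Kpna1 and Nup62cl. Without TubA replicate 2, the library with high myofibre markers, 23 fell and 3 rose. In culture with vehicle, against fresh cells, 31 rows rose, 4 fell and 12 did not pass, with a median difference of 0.83. Over all genes 32.0% rose and 35.0% fell, with a median of -0.03. The 4 that fell were Nup98, Kpna1, Kpna4 and Nup62cl. Between TubA and fresh cells 22 rows rose, 9 fell and 16 did not pass, with a median of 0.43, against 29.8% of all genes that rose, 35.2% that fell and a median of -0.03. These 3 comparisons share libraries, so they are not independent of each other. With equal sums of RPKM the members' counts became 5 higher and 20 lower for TubA against vehicle, 33 higher and 1 lower for TubA against fresh, and 40 higher and 2 lower for vehicle against fresh. All genes then gave 7004 higher and 2481 lower for TubA against fresh and 6280 higher and 2892 lower for vehicle against fresh.

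**Figure D1:**
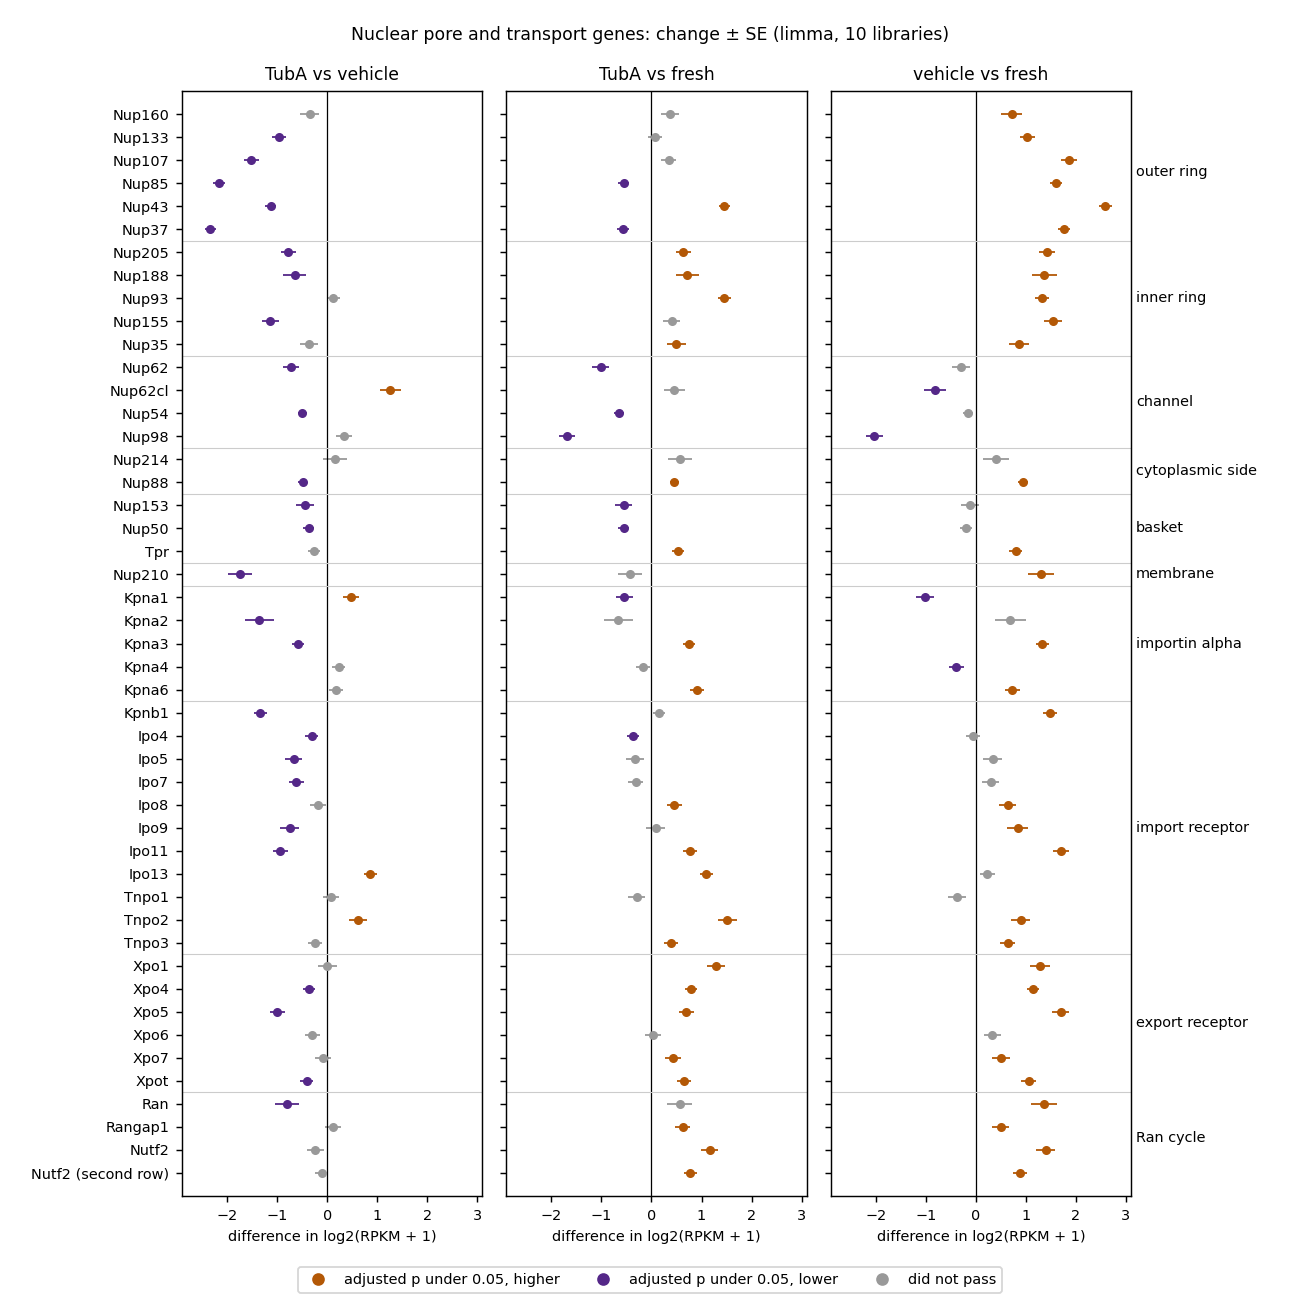
Differences in log2(RPKM + 1), with SE as bars, of the 47 rows in 3 comparisons, in rows grouped by role. Orange points passed the test as higher and purple points as lower, with 4 orange and 26 purple for TubA against vehicle and 31 orange and 4 purple for vehicle against fresh, and grey points did not pass.

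Measured without the scaled library sizes, the members made up 0.429 to 0.453% of the summed RPKM of a library in TubA cells, 0.593 to 0.662% in vehicle cells and 0.207 to 0.281% in fresh cells. The 3 groups did not overlap in this share. Ran, the most abundant member in every group, is the largest single term in it. The members' summed RPKM itself was 1051 to 1120 in TubA, 1648 to 1706 in vehicle and 820 to 1103 in fresh cells, so TubA and fresh libraries overlapped. The sum over all genes was 235147 to 257127 RPKM in TubA and 392681 to 436266 RPKM in fresh cells. The share therefore holds the same shift as equal sums of RPKM, and it is not set against that of other genes here.

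In the outer ring, all 6 genes placed there by role rose in vehicle against fresh cells, with differences between 0.71 and 2.59. In TubA against vehicle cells 5 of 6 fell, with Nup160 the exception. Over all genes 32.0% rose in the first comparison and 29.7% fell in the second. Nup98, whose transcript also codes for a Y complex protein, is counted in the channel group and gave -2.03 for vehicle against fresh. The 3 listed Y complex genes with other names were added after their values were seen. They did not pass in vehicle against fresh cells, at 0.23 for Seh1l, 0.18 for Sec13 and -0.07 for Ahctf1. Of the 9 listed genes, which do not include Nup98, 6 rose. In TubA against vehicle cells Seh1l fell by 0.68 and Ahctf1 fell by 0.58, while Sec13 rose by 0.38 (adjusted p = 0.0324). Nup85, an arm of the Y complex (chr11:115564434-115583985, plus strand), measured 18.9, 17.6, 15.4 and 17.1 RPKM in TubA cells, 77.9, 87.4 and 76.3 RPKM in vehicle cells and 24.1, 29.9 and 23.6 RPKM in fresh cells. Every vehicle library lay above every other library, and the TubA libraries lay below the fresh ones. The difference was -2.16 (SE 0.12, adjusted p = 3.38e-08) for TubA against vehicle, 0.214 times the vehicle mean, and 1.61 (SE 0.12, adjusted p = 3.31e-07) for vehicle against fresh. Nup37, a small beta-propeller bound to Nup160 whose promoter is printed above (gene at chr10:88146992-88178390, plus strand), measured 2.90, 2.90, 3.05 and 2.98 RPKM in TubA, 17.7, 20.3 and 18.9 RPKM in vehicle and 4.91, 5.70 and 4.08 RPKM in fresh cells. Its order was the same as that of Nup85, with no overlap between groups. The difference was -2.33 (SE 0.12, adjusted p = 1.91e-08) for TubA against vehicle, the largest fall of any member in that comparison, and 1.77 (SE 0.12, adjusted p = 1.51e-07) for vehicle against fresh. Nup37 and Nup85 also fell in TubA against fresh cells, by 0.57 and 0.56 on the log2 scale, but with equal sums of RPKM these differences were 0.0059 and 0.13.

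Nup43, another beta-propeller of the Y complex (chr10:7667503-7678881, plus strand), measured 8.04, 8.48, 7.04 and 8.52 RPKM in TubA, 17.5, 19.6 and 19.1 RPKM in vehicle and 2.43, 2.57 and 1.87 RPKM in fresh cells. Here TubA libraries stood between the other groups, without overlap. It had the largest rise of any member in vehicle against fresh cells, 2.59 (SE 0.12, adjusted p = 6.71e-09), fell by 1.13 in TubA against vehicle cells (SE 0.12, adjusted p = 6.48e-06) and was 3.501 times the fresh mean in TubA cells. Nup107, the core of the Y complex stem (chr10:117750621-117792705, minus strand), measured 15.9, 15.7, 12.1 and 15.6 RPKM in TubA, 51.7, 45.9 and 35.8 RPKM in vehicle and 13.8, 10.8 and 9.96 RPKM in fresh cells. TubA and fresh libraries overlapped, and every vehicle library was at least as high as 35.8 RPKM. Its difference was -1.51 (SE 0.15, adjusted p = 5.97e-06) for TubA against vehicle and 1.86 (SE 0.16, adjusted p = 1.10e-06) for vehicle against fresh. TubA against fresh gave 0.34 (adjusted p = 0.0698), and it passed at 0.43 without TubA replicate 3 and at 0.47 without fresh replicate 1. It also passed under each of the 3 other scalings, at 1.01 with equal sums of RPKM. Nup133, at the foot of the stem, averaged 6.77 ± 0.80 RPKM in TubA, 14.1 ± 0.44 RPKM in vehicle and 6.47 ± 1.5 RPKM in fresh cells, and fell by 0.96 in TubA against vehicle cells. Nup160 rose by 0.71 in vehicle against fresh cells, and its difference of -0.34 for TubA against vehicle did not pass (adjusted p = 0.137).

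**Figure D2:**
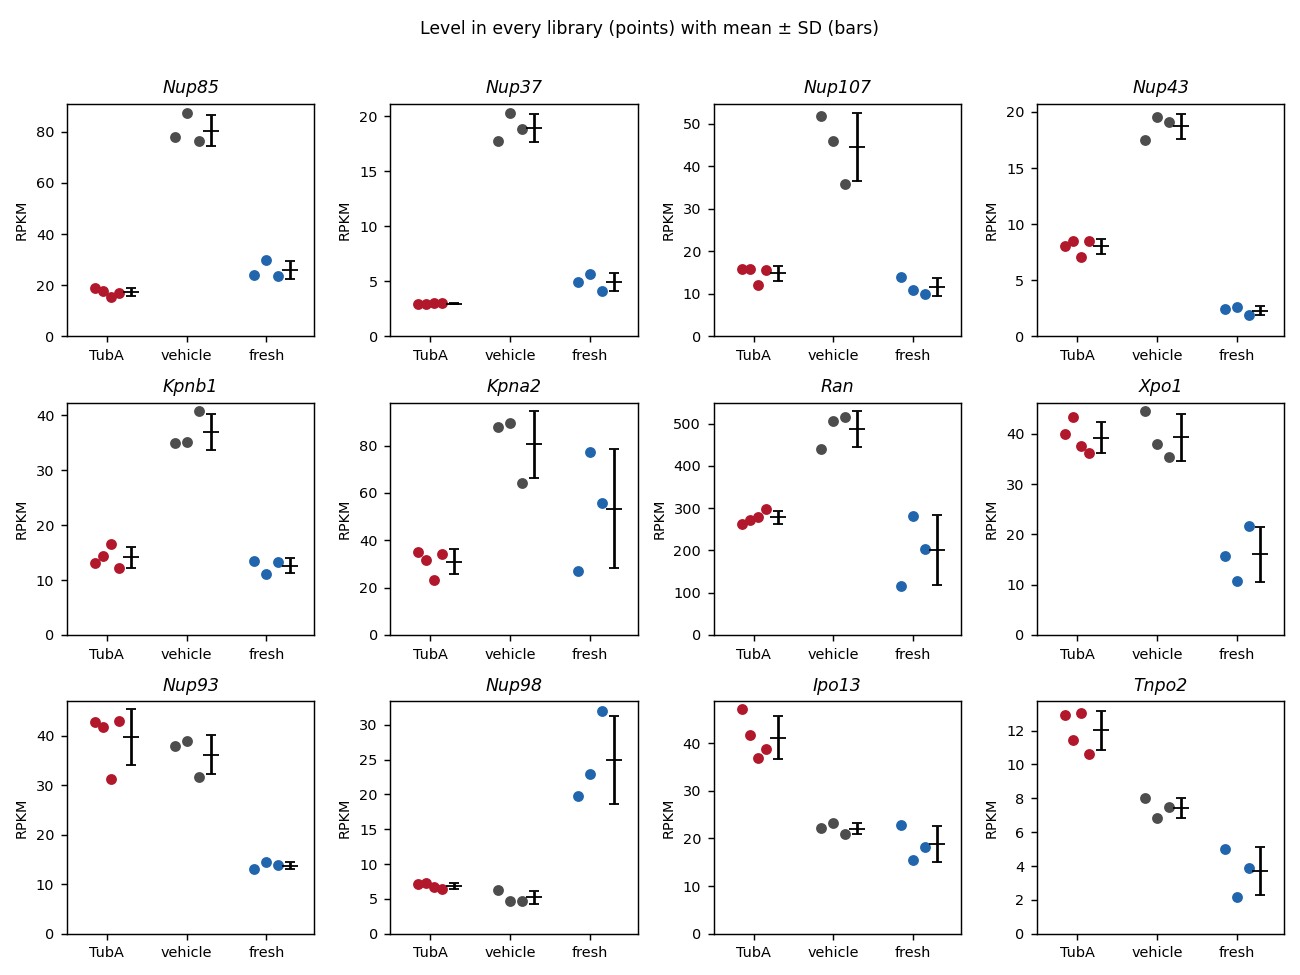
RPKM in each library for 12 members, with TubA, vehicle and fresh libraries from left to right, points for libraries and bars for mean ± SD. The vehicle libraries of Nup85, Nup37 and Nup107 lie above all others, while those of Nup93 and Xpo1 overlap the TubA libraries and those of Nup98 lie far below the fresh ones.

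The inner ring rose as a whole in culture. All 5 of its genes rose in vehicle against fresh cells, by 0.85 to 1.54, and 3 of 5 fell in TubA against vehicle cells. The shares over all genes were 32.0% and 29.7%. Nup93, the scaffold that ties the channel proteins to the ring (chr8:94214564-94317227, plus strand), measured 42.7, 41.7, 31.2 and 43.0 RPKM in TubA, 37.9, 38.9 and 31.6 RPKM in vehicle and 13.0, 14.4 and 13.9 RPKM in fresh cells. Both cultured groups lay far above the fresh one and overlapped each other. Its difference was 1.45 (SE 0.13, adjusted p = 1.48e-06) for TubA against fresh and 1.33 (SE 0.14, adjusted p = 4.57e-06) for vehicle against fresh. For TubA against vehicle it was 0.12 with a 95% interval of -0.16 to 0.41, which does not show equal levels. Nup155, which lines the membrane side of the ring, was low throughout at 2.35 ± 0.30 RPKM in TubA, 6.36 ± 0.99 RPKM in vehicle and 1.58 ± 0.62 RPKM in fresh cells, and fell by 1.13 in TubA against vehicle cells (adjusted p = 0.00012). Its difference for TubA against fresh, 0.40 (adjusted p = 0.0515), passed at 0.57 without fresh replicate 1. That difference also passed under each of the 3 other scalings, at 0.84 with equal sums of RPKM. The paired large scaffolds Nup188 and Nup205 stood between the groups in TubA cells, Nup188 at 8.38 ± 1.4 RPKM in TubA, 13.8 ± 2.9 RPKM in vehicle and 4.95 ± 2.2 RPKM in fresh cells, and Nup205 at 5.80 ± 0.77 RPKM in TubA, 10.7 ± 1.9 RPKM in vehicle and 3.38 ± 0.64 RPKM in fresh cells. The fall of Nup205 in TubA against vehicle cells was 0.78 (adjusted p = 0.000846). That of Nup188 was 0.65 (adjusted p = 0.0304) and did not pass without TubA replicate 3 (-0.66) or 4 (-0.54) or without vehicle replicate 1 (-0.50) or 2 (-0.68). Nor did it pass with equal sums of RPKM (-0.55) or with upper quartile scaling. The rise of Nup188 in TubA against fresh cells, 0.71, did not pass without fresh replicate 2 (0.42). Nup35, a membrane-binding member of the ring, averaged 11.9 ± 0.89 RPKM in TubA, 15.5 ± 0.40 RPKM in vehicle and 8.50 ± 3.1 RPKM in fresh cells. It rose by 0.50 in TubA against fresh cells (adjusted p = 0.0333), with values between 0.23 and 0.53 when any TubA library or fresh replicate 1 or 3 was left out, none of which passed. Its difference for TubA against vehicle, -0.36, passed without fresh replicate 1 or 2, which left the value at -0.36.

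Calls in the channel group were mixed. Of its 4 members Nup62, Nup54, Nup98 and Nup62cl, none rose and 2 fell in vehicle against fresh cells, namely Nup98 and Nup62cl. In TubA against fresh cells 3 fell. Over all genes 35.0% fell in the first comparison and 35.2% in the second. The third channel protein that binds Nup62 and Nup54, listed under its older symbol Nupl1 and not taken by the rule, rose by 0.45 in vehicle against fresh cells (adjusted p = 0.0142). With Nupl1 in place of Nup62cl, 1 of 4 rose and 1 fell in vehicle against fresh cells. Nup62, the central repeat protein of the channel (chr7:44816088-44830812, plus strand), measured 88.0, 82.2, 66.7 and 85.1 RPKM in TubA, 132, 136 and 131 RPKM in vehicle and 121, 194 and 183 RPKM in fresh cells. All TubA libraries were below all others, while vehicle and fresh libraries overlapped. It fell by 0.72 in TubA against vehicle cells (SE 0.17, adjusted p = 0.00281) and by 1.01 in TubA against fresh cells (SE 0.17, adjusted p = 0.000212). With equal sums of RPKM the second difference was -0.29 and did not pass. Vehicle against fresh gave -0.29 (adjusted p = 0.172), and it passed at -0.50 without fresh replicate 1 and turned to 0.31 with equal sums of RPKM. Nup54, the partner of Nup62, measured 20.0, 20.5, 18.9 and 20.7 RPKM in TubA, 28.0, 30.1 and 27.9 RPKM in vehicle and 31.2, 30.1 and 34.8 RPKM in fresh cells. All TubA libraries were below all others. It fell by 0.50 in TubA against vehicle cells (SE 0.09, adjusted p = 0.000695) and by 0.65 in TubA against fresh cells (SE 0.09, adjusted p = 7.15e-05), and the second difference was 0.04 with equal sums of RPKM. Vehicle against fresh gave -0.15 (adjusted p = 0.192), which turned to 0.43 and passed with equal sums of RPKM.

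Nup98 had the largest fall of any member in vehicle against fresh cells. Its transcript codes for a precursor that is cleaved into the repeat protein Nup98 and the Y complex protein Nup96. The gene (chr7:102119398-102210176, minus strand) measured 7.17, 7.31, 6.68 and 6.40 RPKM in TubA, 6.35, 4.72 and 4.74 RPKM in vehicle and 19.8, 23.0 and 32.0 RPKM in fresh cells. Fresh libraries were at least as high as 19.8 RPKM, and no cultured library passed 7.31 RPKM. It fell by 1.69 in TubA against fresh cells (SE 0.16, adjusted p = 1.96e-06) and vehicle against fresh gave -2.03 (SE 0.17, adjusted p = 5.89e-07), and both passed with equal sums of RPKM at -1.02 and -1.47. TubA against vehicle gave 0.34 (adjusted p = 0.0812), which passed without vehicle replicate 1 (0.46) and without fresh replicate 1 or 3 (0.34). It also passed with equal sums of RPKM (0.45) and with upper quartile scaling. Nup62cl, a gene named for its likeness to the end of Nup62, was at 1.95 ± 0.26 RPKM in TubA, 0.229 ± 0.11 RPKM in vehicle and 1.26 ± 0.91 RPKM in fresh cells. It rose by 1.26 in TubA against vehicle cells (adjusted p = 0.000247) and fell by 0.81 in vehicle against fresh cells (adjusted p = 0.00637), all at low levels. Its 0.46 for TubA against fresh (adjusted p = 0.0710) passed at 0.76 without fresh replicate 2 and at 0.86 with equal sums of RPKM.

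The nuclear basket was split. Tpr, its long filament protein (chr1:150392838-150449935, plus strand), measured 11.0, 13.7, 15.7 and 12.1 RPKM in TubA, 17.1, 14.8 and 15.8 RPKM in vehicle and 8.73, 8.39 and 8.93 RPKM in fresh cells. Fresh libraries were below all cultured ones, which overlapped each other. It rose by 0.53 in TubA (SE 0.12, adjusted p = 0.0023) and by 0.80 in vehicle (SE 0.13, adjusted p = 0.000171), both against fresh cells. TubA against vehicle gave -0.27 (adjusted p = 0.0763) and passed at -0.35 without TubA replicate 3. Nup153, which anchors the basket (chr13:46679905-46727940, minus strand), measured 14.7, 15.3, 16.7 and 12.7 RPKM in TubA, 23.7, 19.1 and 18.9 RPKM in vehicle and 21.3, 16.9 and 30.4 RPKM in fresh cells. All TubA libraries were below all others, the nearest of which was a fresh library. It fell by 0.44 in TubA against vehicle cells (adjusted p = 0.0474), a call that was lost without TubA replicate 1 (-0.44), 2 (-0.45) or 4 (-0.37) and without vehicle replicate 1 (-0.34), 2 (-0.49) or 3 (-0.49). The fall of 0.56 in TubA against fresh cells (adjusted p = 0.0145) was lost without fresh replicate 3 (-0.34). Nup50, a cofactor that helps to release import cargo at the basket, measured 23.4, 21.9, 20.7 and 23.0 RPKM in TubA, 31.2, 28.6 and 27.2 RPKM in vehicle and 28.3, 35.1 and 36.8 RPKM in fresh cells. It too was lowest in TubA cells, and fell by 0.37 against vehicle (SE 0.11, adjusted p = 0.0136) and by 0.56 against fresh cells (SE 0.11, adjusted p = 0.000881). The first call was lost without vehicle replicate 1 (-0.32), and vehicle against fresh, -0.19, passed at -0.30 without fresh replicate 1. With equal sums of RPKM, TubA against fresh gave 0.13 for Nup153 and 0.14 for Nup50. TubA against vehicle then gave -0.33 for Nup153 and -0.25 for Nup50, and neither passed. The fall of Nup153 in TubA against vehicle cells was also lost with upper quartile scaling.

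On the cytoplasmic side, Nup88 averaged 13.6 ± 0.68 RPKM in TubA, 19.5 ± 1.1 RPKM in vehicle and 9.63 ± 0.47 RPKM in fresh cells, with no overlap, and changed in every comparison. Nup214, the repeat protein that Nup88 holds, averaged 6.77 ± 1.1 RPKM in TubA, 6.01 ± 1.5 RPKM in vehicle and 4.52 ± 2.4 RPKM in fresh cells and passed in no comparison of the main fit. Without fresh replicate 1 Nup214 gave 0.90 for TubA against fresh and 0.74 for vehicle against fresh, and both passed. With equal sums of RPKM both passed too, at 1.15 and 0.88. TubA against fresh also passed under the other 2 scalings. Nup210, a membrane nucleoporin known from mouse muscle cells for a rise during differentiation, was at 1.62 ± 0.42 RPKM in TubA, 7.77 ± 1.9 RPKM in vehicle and 2.68 ± 1.4 RPKM in fresh cells. It fell by 1.73 in TubA against vehicle cells (SE 0.24, adjusted p = 7.11e-05) and rose by 1.30 in vehicle against fresh cells (SE 0.26, adjusted p = 0.000754). TubA against fresh gave -0.43 (adjusted p = 0.136), which passed at -0.69 without fresh replicate 2 and turned to 0.04 with equal sums of RPKM.

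The 5 importin alpha genes, whose products bind cargo with a classical import signal, each had a combination of calls of its own. Kpna2 (chr11:106988629-106999541, minus strand), known for high levels in dividing cells, measured 35.1, 31.5, 23.3 and 34.1 RPKM in TubA, 87.9, 89.3 and 64.3 RPKM in vehicle and 27.2, 77.3 and 55.5 RPKM in fresh cells. TubA libraries were below all vehicle ones, and fresh libraries spread over the range of both. It fell by 1.35 in TubA against vehicle cells (SE 0.29, adjusted p = 0.00157), to 0.385 times the vehicle mean. TubA against fresh gave -0.66 (adjusted p = 0.0606), which passed at -1.07 without fresh replicate 1, and vehicle against fresh gave 0.69 (adjusted p = 0.0641), which passed at 1.01 without fresh replicate 2. Vehicle against fresh also passed under each of the 3 other scalings, at 1.28 with equal sums of RPKM. With equal sums TubA against fresh turned to 0.04. Kpna3, of another subfamily, averaged 30.7 ± 0.94 RPKM in TubA, 46.7 ± 5.2 RPKM in vehicle and 18.1 ± 3.4 RPKM in fresh cells, changed in every comparison and fell by 0.58 in TubA against vehicle cells (adjusted p = 0.00176). Kpna6 averaged 7.92 ± 0.86 RPKM in TubA, 6.92 ± 1.3 RPKM in vehicle and 3.73 ± 0.17 RPKM in fresh cells, and was higher in both cultured groups than in fresh cells.

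Kpna1 and Kpna4 were the 2 importin alpha genes that fell in culture. Kpna1 (chr16:35978750-36037131, plus strand) measured 24.6, 26.0, 21.5 and 25.0 RPKM in TubA, 19.7, 16.8 and 15.2 RPKM in vehicle and 30.0, 30.8 and 49.3 RPKM in fresh cells. The groups did not overlap, with vehicle lowest. It fell by 0.54 in TubA (adjusted p = 0.0127) and by 1.02 in vehicle (SE 0.18, adjusted p = 0.000296), both against fresh cells, and with equal sums of RPKM the first became 0.16 and the second -0.44. It rose by 0.47 in TubA against vehicle cells (adjusted p = 0.0278), a call lost without TubA replicate 1 (0.47), 2 (0.44) or 4 (0.46) and without vehicle replicate 2 (0.46) or 3 (0.39). Kpna4 measured 16.3, 15.7, 14.8 and 12.8 RPKM in TubA, 13.1, 12.4 and 12.0 RPKM in vehicle and 15.4, 14.3 and 21.4 RPKM in fresh cells. Vehicle libraries were below all fresh ones, and TubA libraries overlapped both. Its fall of 0.39 in vehicle against fresh cells (adjusted p = 0.0334) was lost without vehicle replicate 1 (-0.43), 2 (-0.39) or 3 (-0.37) or fresh replicate 3 (-0.23), and it turned to 0.17 with equal sums of RPKM.

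Among the 11 import receptors of the importin beta family, 6 rose and none fell in vehicle against fresh cells, and 6 fell and 2 rose in TubA against vehicle cells. Over all genes 32.0% rose and 35.0% fell in the first comparison, and 29.7% fell and 29.6% rose in the second. Kpnb1, importin beta itself and the partner of importin alpha (chr11:97159714-97187881, minus strand), measured 13.2, 14.4, 16.6 and 12.2 RPKM in TubA, 34.9, 35.1 and 40.8 RPKM in vehicle and 13.4, 11.1 and 13.3 RPKM in fresh cells. Vehicle libraries stood alone at the top, and TubA and fresh libraries overlapped. It fell by 1.33 in TubA against vehicle cells (SE 0.12, adjusted p = 2.79e-06) and rose by 1.48 in vehicle against fresh cells (SE 0.13, adjusted p = 1.14e-06). TubA against fresh was 0.15, with a 95% interval of -0.12 to 0.42, but it was 0.82 and passed with equal sums of RPKM. Ipo11, an importer of ubiquitin-conjugating enzymes (chr13:106794439-106936958, minus strand), measured 7.25, 7.95, 6.84 and 6.43 RPKM in TubA, 17.0, 14.4 and 12.3 RPKM in vehicle and 4.84, 3.11 and 3.46 RPKM in fresh cells. TubA libraries were between the other groups with no overlap, at -0.94 against vehicle (SE 0.15, adjusted p = 0.000197) and 0.77 against fresh (SE 0.15, adjusted p = 0.00067), and vehicle against fresh was 1.71 (SE 0.16, adjusted p = 1.60e-06).

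Ipo13 and Tnpo2 went the other way and were highest in TubA cells. Ipo13, which carries cargo in both directions (chr4:117894486-117914999, minus strand), measured 47.1, 41.7, 36.8 and 38.8 RPKM in TubA, 22.1, 23.1 and 20.98 RPKM in vehicle and 22.9, 15.5 and 18.3 RPKM in fresh cells. All TubA libraries were above all others, and vehicle and fresh libraries overlapped. It rose by 0.86 against vehicle (SE 0.13, adjusted p = 0.00017) and by 1.09 against fresh cells (SE 0.13, adjusted p = 1.98e-05). Vehicle against fresh, 0.23, passed at 0.37 without fresh replicate 1 and at 0.80 with equal sums of RPKM. Tnpo2, a transportin that imports RNA-binding proteins (chr8:85036915-85057583, plus strand), measured 12.9, 11.4, 13.1 and 10.6 RPKM in TubA, 8.03, 6.85 and 7.49 RPKM in vehicle and 5.00, 2.19 and 3.88 RPKM in fresh cells. The groups did not overlap. It was the one member that rose in every comparison, by 0.62 for TubA against vehicle (SE 0.18, adjusted p = 0.0119), 1.52 for TubA against fresh (SE 0.18, adjusted p = 1.76e-05) and 0.90 for vehicle against fresh (SE 0.20, adjusted p = 0.00151). A transcript on the opposite strand shares 10.6% of its exon bases, and use of strand in the counting is not given in the sources used here. Its close relative Tnpo1 passed in no comparison, at 15.4 ± 1.4 RPKM in TubA, 14.5 ± 0.51 RPKM in vehicle and 19.6 ± 5.5 RPKM in fresh cells, except without fresh replicate 2, where it gave -0.52 for TubA and -0.60 for vehicle, both against fresh.

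Of the other importers, Ipo5 and Ipo7, which carry ribosomal proteins among other cargo, fell in TubA against vehicle cells by 0.67 (adjusted p = 0.00582) and 0.61 (adjusted p = 0.0049). Ipo5 averaged 38.3 ± 3.5 RPKM in TubA, 61.2 ± 0.17 RPKM in vehicle and 49.9 ± 15 RPKM in fresh cells. Fresh libraries of Ipo5 ran from 34.2 to 64.1 RPKM, and its other comparisons depended on single fresh libraries. The -0.33 for TubA against fresh passed at -0.57 without fresh replicate 1, and 0.34 for vehicle against fresh passed at 0.54 without fresh replicate 3. Vehicle against fresh also passed with equal sums of RPKM, at 0.93. Ipo7 averaged 7.38 ± 0.59 RPKM in TubA, 12.0 ± 3.0 RPKM in vehicle and 9.49 ± 1.5 RPKM in fresh cells. Its -0.32 for TubA against fresh passed at -0.42 without fresh replicate 2 and at -0.32 without vehicle replicate 1. Ipo9, an importer of histones, averaged 15.6 ± 1.5 RPKM in TubA, 27.2 ± 6.0 RPKM in vehicle and 15.05 ± 4.6 RPKM in fresh cells, and fell by 0.75 in TubA against vehicle cells (adjusted p = 0.00596). Ipo4 cannot be separated from an overlapping gene that shares 55.3% of its exon bases on the same strand, and its calls did not hold without single libraries. Its -0.31 for TubA against vehicle was lost when any TubA or vehicle library or fresh replicate 3 was left out (-0.35 to -0.27), and its -0.37 for TubA against fresh without TubA replicate 3 (-0.33), fresh replicate 1 (-0.25) or fresh replicate 3 (-0.35), and that value turned to 0.30 with equal sums of RPKM. The call of Ipo4 for TubA against vehicle was also lost with equal sums of RPKM (-0.20) and with upper quartile scaling. Ipo8 and Tnpo3, the importer of splicing factors, rose in vehicle against fresh cells by 0.64 and 0.63. Their rises in TubA against fresh cells, 0.46 and 0.40, did not all hold without single libraries: Ipo8 was lost without TubA replicate 3 (0.43) or fresh replicate 2 (0.29), and Tnpo3 without TubA replicate 1 (0.38) or 2 (0.38) or fresh replicate 2 (0.21).

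Export receptors rose in vehicle against fresh cells in 5 of 6 cases, against 32.0% of all genes. In TubA against vehicle cells 3 of 6 fell, against 29.7% of all genes. Of these only Xpo5 also fell with equal sums of RPKM. Xpo1, the exporter of proteins with a leucine-rich signal (chr11:23256041-23298249, plus strand), measured 40.0, 43.3, 37.5 and 36.2 RPKM in TubA, 44.5, 37.9 and 35.4 RPKM in vehicle and 15.7, 10.7 and 21.7 RPKM in fresh cells. Both cultured groups were above the fresh one and overlapped. It rose by 1.29 in TubA (SE 0.19, adjusted p = 7.55e-05) and by 1.29 in vehicle (SE 0.20, adjusted p = 0.000116), both against fresh cells, and the difference between TubA and vehicle had a 95% interval of -0.41 to 0.41. Xpo5, which exports precursors of microRNAs (chr17:46202782-46243598, plus strand), measured 13.2, 13.3, 12.3 and 11.3 RPKM in TubA, 28.9, 24.5 and 24.4 RPKM in vehicle and 9.74, 5.59 and 7.11 RPKM in fresh cells. The groups did not overlap. Its difference was -0.99 (SE 0.15, adjusted p = 0.000154) for TubA against vehicle, 0.70 (SE 0.15, adjusted p = 0.00161) for TubA against fresh and 1.69 (SE 0.16, adjusted p = 2.16e-06) for vehicle against fresh. Xpot, the exporter of tRNA, averaged 30.1 ± 2.0 RPKM in TubA, 40.3 ± 2.8 RPKM in vehicle and 19.1 ± 4.6 RPKM in fresh cells. Xpo4 averaged 3.96 ± 0.20 RPKM in TubA, 5.34 ± 0.092 RPKM in vehicle and 1.90 ± 0.47 RPKM in fresh cells. Both rose in each cultured group against fresh cells and fell in TubA against vehicle cells, by 0.41 and 0.35 on the log2 scale. For Xpot that fall was lost without TubA replicate 3 (-0.40) or 4 (-0.38) or vehicle replicate 1 (-0.36), and for Xpo4 without TubA replicate 1 (-0.35) or 2 (-0.33) or vehicle replicate 1 (-0.36), 2 (-0.34) or 3 (-0.36). Both falls were also lost with equal sums of RPKM, at -0.29 for Xpot and -0.26 for Xpo4, and with upper quartile scaling. Xpo6, the exporter of actin, averaged 9.42 ± 1.1 RPKM in TubA, 11.8 ± 0.67 RPKM in vehicle and 9.34 ± 2.3 RPKM in fresh cells and passed in no comparison of the main fit. It passed at -0.30 for TubA against vehicle without fresh replicate 2 and at 0.43 for vehicle against fresh without fresh replicate 1. With equal sums of RPKM it passed at 0.68 for TubA against fresh and at 0.86 for vehicle against fresh, and the latter also passed with median ratio scaling. Xpo7 averaged 7.52 ± 0.61 RPKM in TubA, 8.02 ± 1.2 RPKM in vehicle and 5.45 ± 1.5 RPKM in fresh cells. Its rise in vehicle against fresh cells, 0.50, was lost without vehicle replicate 1 (0.40) or fresh replicate 2 (0.30), and its rise in TubA, 0.43, without TubA replicate 1 (0.40), 2 (0.40) or 3 (0.44) or fresh replicate 2 (0.23).

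All 4 rows of the Ran cycle rose in vehicle against fresh cells, against 32.0% of all genes. Ran (chr5:129020069-129024323, plus strand) measured 263, 272, 278 and 299 RPKM in TubA, 439, 506 and 516 RPKM in vehicle and 116, 282 and 204 RPKM in fresh cells. All vehicle libraries were above all others, and TubA and fresh libraries overlapped. It fell by 0.81 in TubA against vehicle cells (SE 0.24, adjusted p = 0.0128) and rose by 1.37 in vehicle against fresh cells (SE 0.26, adjusted p = 0.000539). TubA against fresh gave 0.56 (adjusted p = 0.0595), which passed at 0.85 without fresh replicate 2. It also passed under each of the 3 other scalings, at 1.28 with equal sums of RPKM. Nutf2, which returns Ran-GDP to the nucleus (chr8:105860580-105879330, plus strand), measured 71.6, 78.9, 77.4 and 85.0 RPKM in TubA, 81.9, 94.5 and 100.9 RPKM in vehicle and 26.7, 48.7 and 31.1 RPKM in fresh cells. Cultured libraries were above all fresh ones, at 1.16 (SE 0.18, adjusted p = 0.000109) for TubA and 1.40 (SE 0.19, adjusted p = 3.70e-05) for vehicle, both against fresh, and -0.24 for TubA against vehicle did not pass (adjusted p = 0.271). The second row of that symbol held 3.35 to 4.30% of the first in every library. The annotation also names 2 pseudogenes of Nutf2 and 1 of Kpna2, so reads of these genes may be split, and the values are uncertain to that extent. Kpnb1 shares 7.07% of its exon bases with an antisense transcript, and Nup62 shares 3.40% with Il4i1. Rangap1, which makes Ran hydrolyse GTP at the cytoplasmic face, averaged 42.7 ± 1.2 RPKM in TubA, 39.2 ± 1.3 RPKM in vehicle and 28.2 ± 7.7 RPKM in fresh cells. It rose by 0.62 in TubA (adjusted p = 0.00457) and by 0.50 in vehicle (adjusted p = 0.0206), both against fresh cells, and the second call was lost without vehicle replicate 2 (0.47).

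Set side by side, the calls of the 3 comparisons gave 14 combinations. The most frequent, with 11 rows, was higher in both cultured groups than in fresh cells with no call between TubA and vehicle, and it held Nup93, Xpo1, Tpr, Rangap1 and Nutf2 among others. In 9 rows, among them Nup43, Kpna3, Ipo11 and Xpo5, TubA cells lay between vehicle and fresh cells by all 3 calls. In 7, among them Kpnb1, Ran, Nup107 and Nup133, vehicle cells were higher than both and no call separated TubA from fresh cells. With equal sums of RPKM, however, Kpnb1, Ran, Nup107, Nup133, Ipo9 and Nup155 passed as higher in TubA than in fresh cells. Another 5, Nup62, Nup54, Nup50, Nup153 and Ipo4, were lower in TubA cells than in both others with no call between vehicle and fresh. With equal sums of RPKM none of these 5 passed for TubA against fresh cells. All 14 are combinations of thresholds in comparisons that share libraries.

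**Figure D3:**
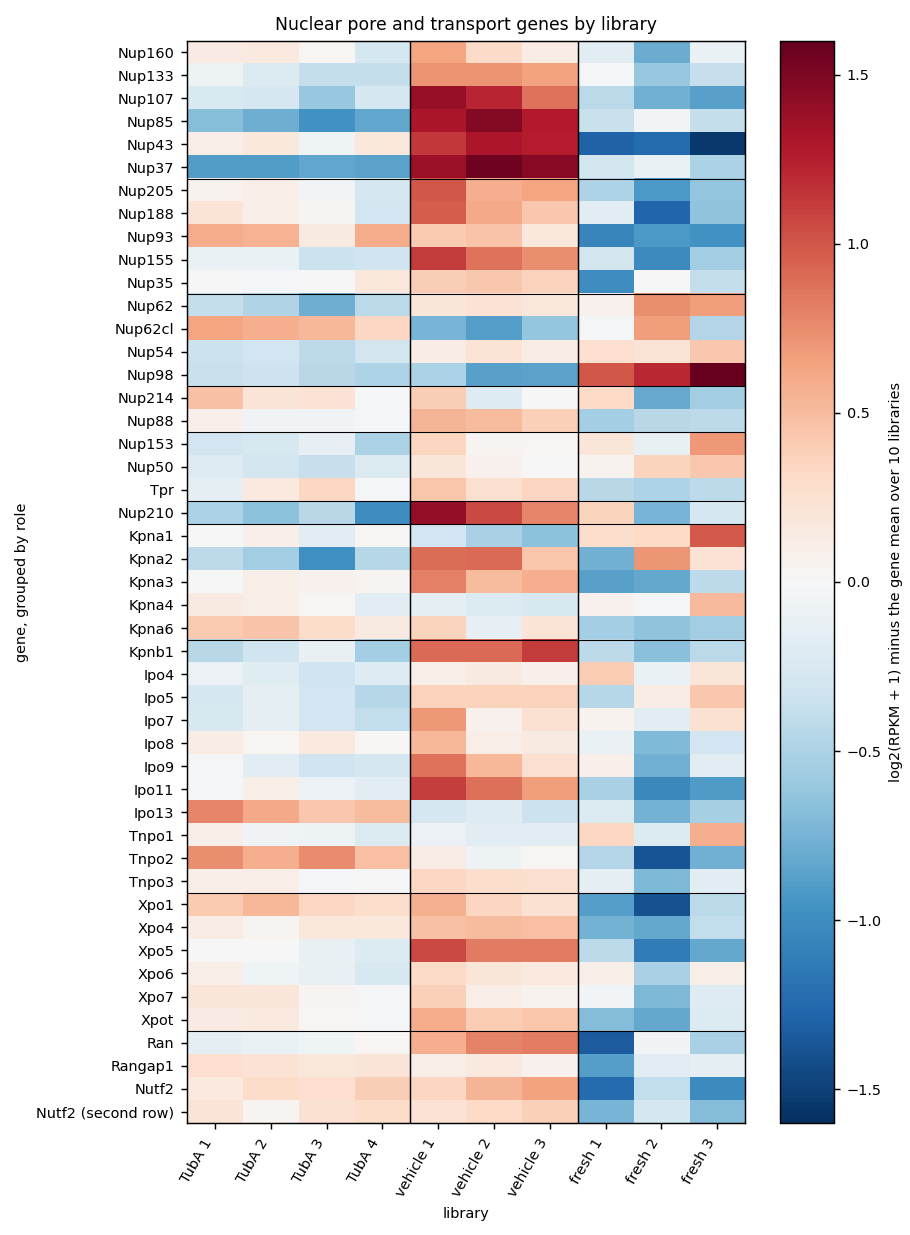
Colour shows log2(RPKM + 1) minus the gene's mean over the 10 libraries, for the 47 rows grouped by role, with TubA, vehicle and fresh libraries from left to right. Most rows of the outer ring are highest in the 3 vehicle libraries, and Nup98 and Kpna1 are highest in the 3 fresh libraries.

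Libraries of one group differed from each other in step with gene length. Of the 46 members with a known exon length, 29 have more than 6 kb of exon and 17 have up to 6 kb. In TubA cells, replicate 4 was the lowest library for 21 of the 29 long members and replicate 3 for 11 of the 17 short ones. In vehicle cells, replicate 1 was the highest for 26 of the 29 long members. In fresh cells, replicate 2 was the lowest for 25 of the 29 long members and the highest for 10 of the 17 short ones. By length class, TubA against vehicle gave 15 lower and 2 higher long members (median -0.35) and 11 lower and 2 higher short ones (median -0.50), and vehicle against fresh gave 20 higher and 3 lower long members (median 0.80) and 10 higher and 1 lower short ones (median 0.86). For TubA against fresh 14 long members were higher and 3 lower (median 0.40), while short members were split, with 7 higher and 6 lower (median 0.46). The part of length in single calls was not tested.

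**Figure D4:**
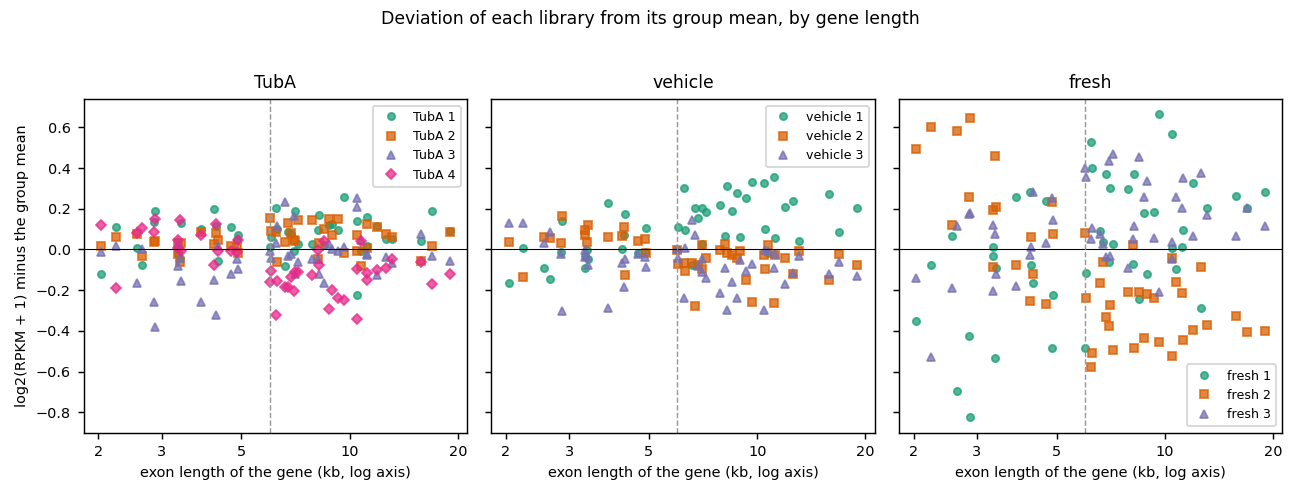
Each member's deviation from its group mean, in log2(RPKM + 1), against its exon length in kb, for each library of the TubA, vehicle and fresh groups, with a dashed line at 6 kb. Most long members lie below 0 in fresh replicate 2 and TubA replicate 4 and above 0 in vehicle replicate 1.

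Pore and transport genes outside the symbol rule gave 18 measured of 19 listed. Between TubA and vehicle cells 9 fell and 4 rose, between TubA and fresh cells 4 fell and 7 rose, and between vehicle and fresh cells 2 fell and 9 rose. Over all genes, as given above, 29.7% fell and 29.6% rose in the first comparison, 35.2% and 29.8% in the second and 35.0% and 32.0% in the third. With equal sums of RPKM the listed genes gave 9 lower and 5 higher, then 13 higher and then 14 higher in that order, and the rest did not pass. Rcc1, the exchange factor that loads Ran with GTP on chromatin, averaged 26.8 ± 1.2 RPKM in TubA, 72.2 ± 8.4 RPKM in vehicle and 15.4 ± 0.72 RPKM in fresh cells. It fell by 1.39 in TubA against vehicle cells (SE 0.10, adjusted p = 4.92e-07) and rose by 2.15 in vehicle against fresh cells (SE 0.11, adjusted p = 1.21e-08). Ranbp1, which helps to release Ran from receptors in the cytoplasm, averaged 134 ± 8.5 RPKM in TubA and 356 ± 10 RPKM in vehicle cells and fell by 1.40 (SE 0.20, adjusted p = 7.82e-05). Aaas, the pore protein aladin, averaged 6.00 ± 0.75 RPKM in TubA, 38.6 ± 3.8 RPKM in vehicle and 7.59 ± 3.3 RPKM in fresh cells, and its difference of -2.50 for TubA against vehicle (SE 0.21, adjusted p = 1.21e-06) was a larger fall than that of any member. Senp1, a protease of the small modifier SUMO that sits at the pore, fell by 1.31 in the same comparison. Rae1 and Snupn, an mRNA export factor and the import adaptor of spliceosomal snRNPs, rose by 1.11 and 0.95 in TubA against fresh cells.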

How the data were processed

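RNA-seq of 4 TubA, 3 vehicle and 3 fresh libraries was analysed from a table of RPKM deposited by the authors. Per the labels' protocols, SMART-Seq v4 amplified the RNA and both ends of each fragment were read. Per the submitters' processing notes, the tools were STAR, Subread with featureCounts, Trim Galore and edgeR, on mm10, with no version or setting given in the sources used here. Values of log2(RPKM + 1) for all 12803 rows were fitted with limma 3.58.1 in R 4.3.3, with 1 model for the 3 groups, a variance trend and no block, and no row was filtered out. Reads were recovered with GENCODE M21 exon lengths and gave the depth. Python 3.11.15 with pandas 2.3.3, numpy 2.4.6 and matplotlib 3.10.9 did the rest. The fit was tested on simulated data. Alternatives were 3 scalings, pseudocounts, filters, voom on recovered reads, 2-group fits, a replicate block, a stricter threshold and each library left out. Per-library values were given for the 5 largest rises and 5 largest falls of each comparison among members that passed with a mean of at least 5 RPKM, and for Ran, Kpnb1, Kpna2, Xpo1, Nup62, Nup153 and Tpr. The members, lists and motifs were chosen with earlier results of these data known. Coordinates are those of the GENCODE annotation of mm10, 1-based.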

Additional observations from a re-analysis of the deposited data

Results flagged for a closer look

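In 3 of the 47 rows the gap between an extreme TubA library and its nearest neighbour exceeded the limit of Dixon's test at 4 samples. Nup35 stood apart in TubA replicate 4, at 13.2 RPKM, above the other TubA libraries. Nup107 at 12.1 RPKM and Nup93 at 31.2 RPKM stood apart in TubA replicate 3, below the other TubA libraries. Chance gives about 1 such case in 20 groups, and the groups of 3 were not tested.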

How the results depend on the processing

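The 96 called changes of members were tried under alternatives 1819 times in all. The call was kept in 1721 of these trials, lost in 90 and turned in sign in 8. All 8 turns came with equal sums of RPKM: Kpna4 at 0.17 for vehicle against fresh, and, for TubA against fresh, Nup37 at 0.0059, Nup85 at 0.13, Nup153 at 0.13, Nup50 at 0.14, Nup54 at 0.0445, Kpna1 at 0.16 and Ipo4 at 0.30. Differences that were not called also turned. With equal sums they were, for vehicle against fresh, Nup54 at 0.43, Nup62 at 0.31, Ipo4 at 0.50, Nup153 at 0.45, Tnpo1 at 0.19 and Nup50 at 0.39; for TubA against vehicle, Xpo7 at 0.029; and for TubA against fresh, Kpna4 at 0.51, Nup210 at 0.037, Ipo7 at 0.32, Ipo5 at 0.38, Kpna2 at 0.0437 and Tnpo1 at 0.38. With upper quartile scaling Ipo4 was at 0.0086 (vehicle against fresh), Xpo7 at 0.0245 (TubA against vehicle) and Kpna4 at 0.0084 (TubA against fresh). With median ratio scaling Ipo4 was at 0.027 (vehicle against fresh) and Xpo1 at -0.013 (TubA against vehicle). Leaving out single libraries gave -0.31 to 0.10 for Nup153 and -0.19 to 0.063 for Ipo4 (vehicle against fresh), -0.14 to 0.0237 for Xpo7 and -0.067 to 0.094 for Xpo1 (TubA against vehicle), and -0.16 to 0.27 for Ipo9, -0.28 to 0.0009 for Kpna4, -0.17 to 0.13 for Xpo6 and -0.065 to 0.22 for Nup133 (TubA against fresh).

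Counts moved by more than 1.5 times with equal sums of RPKM, to 1 lower member, 7004 higher and 2481 lower genes for TubA against fresh, and to 2 lower members, 6280 higher and 2892 lower genes for vehicle against fresh. At an adjusted p under 0.01 in limma's test, 2 members were higher in TubA than in vehicle cells. Without single libraries, 3 to 5 members were higher and 20 to 29 lower for TubA against vehicle (all genes 3233 to 4192 and 3323 to 4149), 19 to 24 and 7 to 12 for TubA against fresh (3511 to 3907 and 4218 to 4659), and 30 to 34 and 3 to 6 for vehicle against fresh (3769 to 4232 and 4099 to 4680). Voom on recovered reads gave 4 higher and 25 lower of 45 rows for TubA against vehicle. Why calls changed was not tested.

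Whether replicate numbers pair the libraries is not settled. Deviations of libraries with the same number correlated between -0.19 and 0.38, and those of libraries with different numbers between -0.51 and 0.45. These ranges overlap and cannot decide it. A replicate block gave 3 higher and 23 lower members for TubA against vehicle, 24 and 9 for TubA against fresh and 31 and 4 for vehicle against fresh. Depth limits Nup62cl in vehicle cells, at 0.229 RPKM on average.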

Other observations

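Of the 25 listed genes of mRNA export, all measured, 10 fell and 1 rose in TubA against vehicle cells, where 29.7% of all genes fell and 29.6% rose. In TubA against fresh cells 8 fell and 7 rose, against 35.2% and 29.8% of all genes, which is near that background. In vehicle against fresh cells 6 fell and 11 rose, against 35.0% and 32.0% of all genes. With equal sums of RPKM these counts were 7 lower and 4 higher, 2 lower and 15 higher, and 1 lower and 16 higher in that order. Thoc6, a subunit of the THO complex that couples transcription to export, averaged 3.85 ± 0.23 RPKM in TubA (n = 4), 17.6 ± 0.16 RPKM in vehicle (n = 3) and 22.1 ± 4.6 RPKM in fresh cells (n = 3), a difference of -1.94 for TubA against vehicle (limma, SE 0.13, adjusted p = 1.58e-07). Ddx39, an RNA helicase of the export complex, averaged 31.8 ± 2.0 RPKM in TubA, 96.99 ± 5.5 RPKM in vehicle and 18.7 ± 5.3 RPKM in fresh cells. Alyref, the export adaptor, averaged 55.0 ± 1.3 RPKM in TubA and 129 ± 8.4 RPKM in vehicle cells.

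Of 15 genes of the nuclear lamina and envelope, 7 fell and 2 rose in TubA against vehicle cells, 8 fell and 2 rose in TubA against fresh cells, and 7 fell and 6 rose in vehicle against fresh cells. Of all genes 29.7% fell and 29.6% rose in the first of these comparisons, 35.2% and 29.8% in the second and 35.0% and 32.0% in the third. With equal sums of RPKM the counts were 7 lower and 3 higher, 3 lower and 4 higher, and 4 lower and 6 higher. Lmnb1, a B-type lamin, averaged 3.82 ± 0.41 RPKM in TubA, 32.8 ± 7.8 RPKM in vehicle and 7.07 ± 2.4 RPKM in fresh cells, a difference of -2.79 for TubA against vehicle (limma, SE 0.20, adjusted p = 3.00e-07). Lmna, the A-type lamin gene, fell by 2.82 in TubA against fresh cells (limma, SE 0.21, adjusted p = 3.01e-07). Lemd2, an inner membrane protein that recruits membrane-sealing factors, rose by 1.04 in TubA against vehicle cells, at 32.8 ± 3.2 RPKM in TubA and 15.5 ± 1.1 RPKM in vehicle cells.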
